A study of Mus musculus with 7 samples.

Results

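The chemokine ligands and receptors were described across sham operated and overloaded plantaris muscle of the mouse. Members were the genes whose single symbol in the array annotation is Ccl, Cxcl, Ccr or Cxcr followed by a number and an optional letter, together with Xcl1, Xcr1, Cx3cl1 and Cx3cr1. This gave 49 of 18193 genes on the array, 33 ligands and 16 receptors. All mice were Pax7-DTA (parental strains Pax7-CreER and Rosa26-DTA) aged 4 months. In these mice tamoxifen switches on diphtheria toxin A in cells in which the Pax7 promoter is active, which in muscle are the satellite cells, the resident stem cells, while vehicle leaves them in place. Overload lasted 1 week and was brought about by synergist ablation, in which the neighbouring muscles of like action are removed. There were 7 arrays: vehicle sham (n = 1, male), tamoxifen sham (n = 1, male), vehicle overload (n = 2, replicate 1 female and replicate 2 male) and tamoxifen overload (n = 3, replicates 1 and 2 male and replicate 3 female). The titles read as single mice, whereas the series' design text speaks of pooled right and left muscles and of 11 animals. The number of animals per array is therefore uncertain, and the p-values measure only the spread between overload arrays of a group. Each sham group had 1 array, so no spread between sham arrays enters them.

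Chemokines are small secreted proteins that guide leukocytes along gradients, many of them held on heparan sulfate at the vessel wall and in the matrix. Their receptors couple to inhibitory G proteins, and each leukocyte class carries its own set: CCR2 and CX3CR1 mark monocytes and macrophages, CXCR2 neutrophils, and CXCR3, CCR7 and others lymphocytes and dendritic cells. In injured skeletal muscle, neutrophils and monocytes enter before the myofibres are repaired, and CCR2 is needed for most of the monocyte entry. The ligands were therefore described by the cells they chiefly attract: 10 monocyte-attracting, 5 neutrophil-attracting, 13 lymphocyte-attracting and 5 other ligands.

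Values are linear probe set signals, scaled by the authors to the same trimmed mean on every array. The median signal per array ran from 88.2 to 127.7 and was lowest on the sham arrays and highest on tamoxifen overload replicate 2. With so few arrays the precision of each value is low. Background was taken as a signal of 54.2, which 95% of 76 smell and taste receptor genes did not exceed in mean level, genes that muscle is not known to use. At least 1 array was above it for 41 of the 49 members, and all 7 arrays for 19. No array was above it for Ccl1, Ccl20, Ccl22, Ccl24, Ccr3, Ccr8, Cxcr5 and Xcr1. The 10 genes of adult myofibres, Acta1, Ckm and Mb among them, were above background on every array, as the labelled tissue requires. Pax7, the gene whose promoter drives the toxin system, had a signal of 92.8 in vehicle sham and 41.2 in tamoxifen sham. It reached 274 and 349 in vehicle overload and 57.9, 9.97 and 120.4 in tamoxifen overload. Each tamoxifen array was thus below each vehicle overload array, though the fitted difference in overload, a log2 value of -2.67, did not pass (adjusted p = 0.399, limma).

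The first comparison asked which chemokine genes overload changed, as the mean over both treatments (5 overload against 2 sham arrays). Most monocyte-attracting ligands and the monocyte receptors measured rose, the lymphocyte group was mixed, and many members stayed dim. Of the 49 members 19 rose and 1, Cxcl11, fell at an adjusted p under 0.05 (limma, Benjamini-Hochberg over 18193 genes). Of all genes 14.7% rose and 8.16% fell, so the members rose in a larger share, 38.8%. When each array was centred on its median instead, 9.56% of all genes rose and 14.9% fell, while 18 members rose and 3 fell (Ccl11, Ccl28 and Cxcl11). Without that centring, the members' median log2 difference was 1.13, against 0.07 over all genes, and 37 were positive. When each side that lay below background on every array was set to the background level, both medians were 0. Every overload array was above every sham array for 23 members, 46.9% against 23.1% of all genes. The reverse held for 3, Ccl28, Cxcl11 and Cxcl13, or 6.12% against 18.3%. The calls rest on the intensity trend of the variance model: without it no gene of the array was called, and at an unadjusted p under 0.05 19 members (38.8%) were higher, against 19% of all genes.

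**Figure D1:**
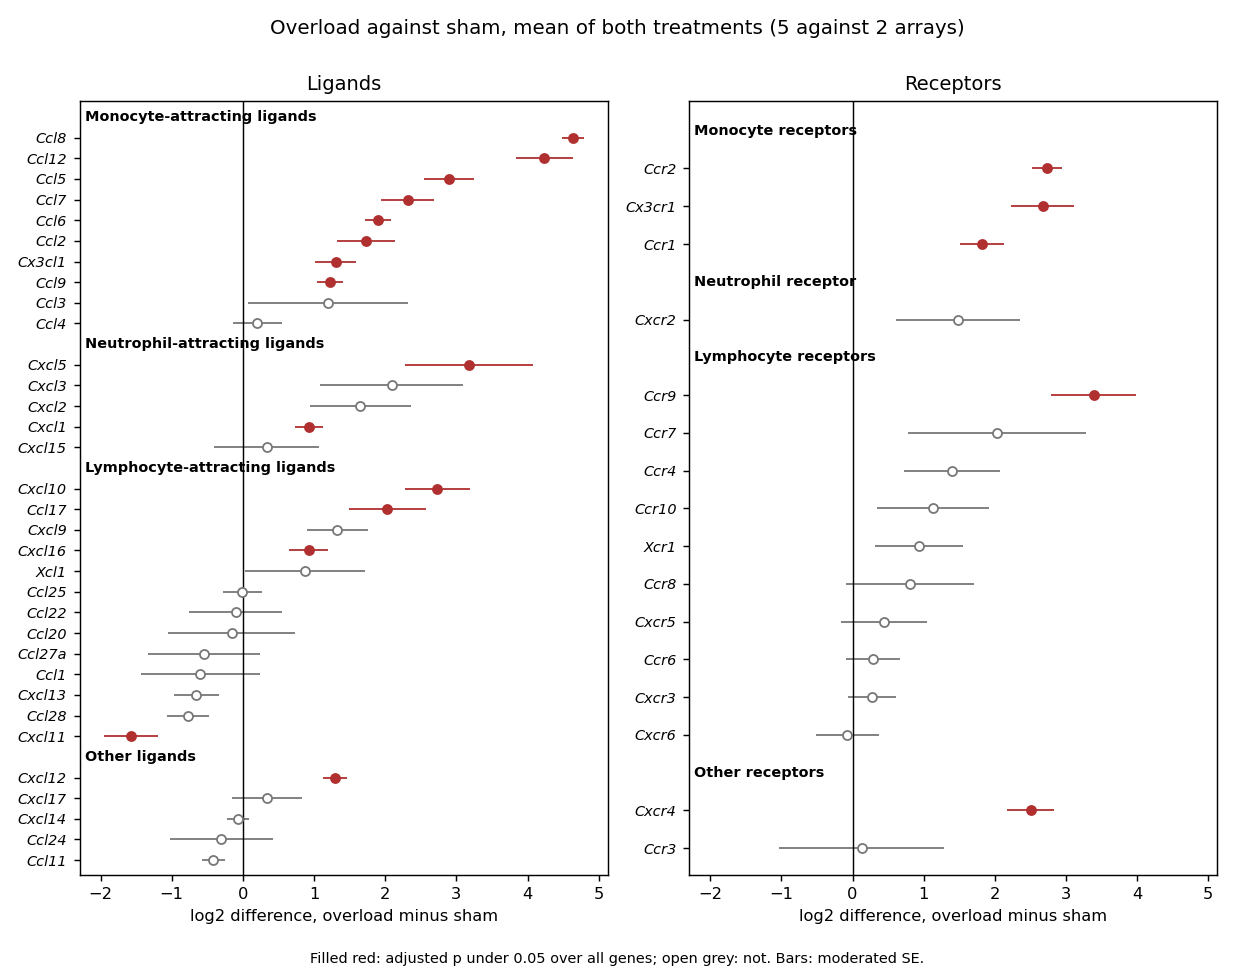
Fitted log2 difference of each chemokine gene, overload minus sham as the mean of both treatments, with the moderated standard error as bars; filled red points passed an adjusted p under 0.05 over all genes and open grey points did not. Monocyte-attracting ligands and monocyte receptors lie mostly to the right of 0, Ccl8 at 4.63 is the highest, and Cxcl11 at -1.58 is the only called fall. For genes below background on both sham arrays the plotted value depends on the pseudocount and is not a bound.

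Of the 10 monocyte-attracting ligands 8 rose and none fell (80% and 0%, against 14.7% and 8.16% of all genes). Their median log2 difference was 1.81 (1.74 with dim sham sides at the background level). Ccl8 (MCP-2) changed most. Its signal was 88.3 in vehicle sham and 215 in tamoxifen sham, 2030.0 and 2318 in vehicle overload, and 4514, 5729 and 4127 in tamoxifen overload. The 3 levels did not overlap: sham was lowest, vehicle overload intermediate and tamoxifen overload highest. Overload raised Ccl8 by 4.63 ± 0.155 (log2, moderated SE), or 24.9-fold (adjusted p = 5.94e-06, limma). Ccl12 (MCP-5), the mouse ligand of CCR2 next to it on the chromosome, had signals of 6.08 and 27.1 in sham, 343 and 159 in vehicle overload and 273, 624 and 592 in tamoxifen overload. It was below background on both sham arrays and above it on all 5 overload arrays, at least 6.43-fold higher (adjusted p = 0.000488, limma).

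Ccl7 (MCP-3), another CCR2 ligand, had signals of 28.4 and 42.8 in sham, 169 and 124 in vehicle overload and 179, 362 and 357 in tamoxifen overload. It was at least 3.96-fold higher (adjusted p = 0.00392, limma), with every overload array above the background that neither sham array reached. Ccl2 (MCP-1), the main CCR2 ligand in man and mouse, rose less. Its signals were 42.6 and 75.2 in sham, 181 and 145 in vehicle overload and 156, 369 and 232 in tamoxifen overload. Every overload array was above both sham arrays, the overload groups overlapped each other, and the log2 difference was 1.73 ± 0.402 (adjusted p = 0.0184, limma). The call for Ccl2 was lost without vehicle sham replicate 1 and without vehicle overload replicate 2 (highest adjusted p = 0.130, limma).

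Ccl5 (RANTES), a ligand for monocytes and T cells, had signals of 10.2 and 38.5 in sham, 181 and 142 in vehicle overload and 145, 211 and 275 in tamoxifen overload. Neither sham array reached background and all overload arrays passed it, at least 3.37-fold higher (adjusted p = 0.00124, limma). Ccl6 and Ccl9, CCR1 ligands that mouse macrophages make, were well above background in sham muscle already. Ccl6 went from 376 and 601 in sham to 1875 and 2037 in vehicle overload and 1897, 1339 and 1836 in tamoxifen overload, a log2 difference of 1.90 ± 0.186 (adjusted p = 0.000542, limma). The overload groups overlapped each other, and neither touched the sham arrays. Ccl9 went from 365 and 729 to 1424 and 1010.4 with vehicle and 1182, 1635 and 1549 with tamoxifen, by 1.22 ± 0.185 (adjusted p = 0.00313, limma). Its call was lost without vehicle sham replicate 1 (adjusted p = 0.0861, limma), the lower of the sham arrays.

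Cx3cl1 (fractalkine), a membrane-bound ligand on endothelium, rose from 74.7 and 107 in sham to 245 and 229.7 with vehicle and 174, 267 and 229 with tamoxifen. The log2 difference was 1.31 ± 0.289 (adjusted p = 0.0148, limma) and no overload array fell to the sham level. The call was lost without vehicle sham replicate 1 and without vehicle overload replicate 2, and when its 4 probe sets were averaged. The remaining ligands of CCR1 and related receptors, Ccl3 (MIP-1 alpha) and Ccl4 (MIP-1 beta), did not pass (adjusted p = 0.516 and 0.736, limma). Ccl3 had signals of 17.4 and 21.2 in sham, 1.79 and 67.8 in vehicle overload and 60.9, 46.6 and 111 in tamoxifen overload, so that vehicle overload replicate 1 was the lowest array of all. Ccl4 ran from 94.0 to 199 over the 7 arrays.

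**Figure D2:**
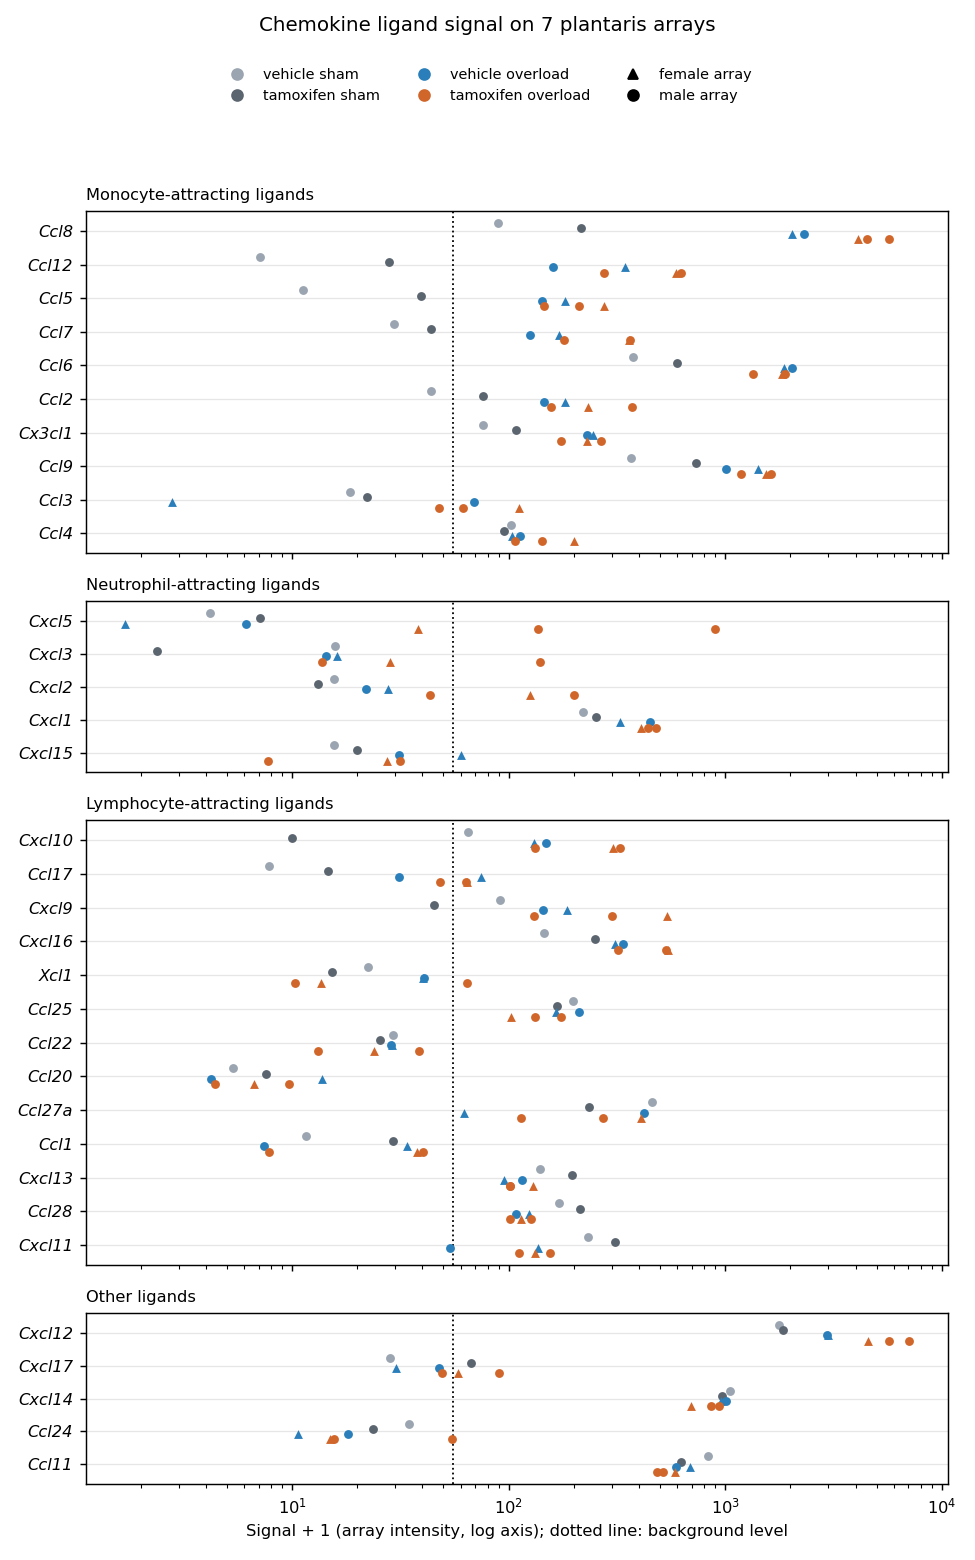
Signal plus 1 of each chemokine ligand on the 7 arrays (log axis), coloured by group and shaped by sex, with the background level as a dotted line. Ccl8 runs from 88.3 in vehicle sham to 5729 in tamoxifen overload replicate 2, and Cxcl5 is above background on 2 arrays alone, tamoxifen overload replicates 1 and 2.

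Neighbouring ligand genes did not move alike. On chromosome 11 the order of the chemokine genes in RefSeq (assembly GRCm38.p6) is Ccl2, Ccl7, Ccl11, Ccl12, Ccl8 and Ccl1, followed by Ccl5, Ccl9, Ccl6, Ccl3 and Ccl4. Ccl2, Ccl7, Ccl12 and Ccl8 rose. Ccl11 (eotaxin-1), which lies among them and attracts eosinophils, had a log2 difference of -0.41 ± 0.156 and did not pass (adjusted p = 0.0979, limma). Its signals were 835 and 626 in sham, 687 and 591 in vehicle overload and 516, 482 and 588 in tamoxifen overload. Median centring of the arrays called Ccl11 lower. Ccl1, at the end of the run, was below background on every array. In all, 8 of 14 members on chromosome 11 were called, 4 of 10 on chromosome 5 (the fall of Cxcl11 among them) and 4 of 10 on chromosome 9. Over the whole array 4163 of 18193 genes were called in either direction.

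Among the receptors, all 3 measured monocyte receptor genes, Ccr2, Cx3cr1 and Ccr1, rose, where 14.7% of all genes did. Their median log2 difference was 2.67 (2.46 with dim sham sides at the background level). Ccr2, the receptor of Ccl2, Ccl7 and Ccl12, had signals of 55.1 in vehicle sham and 278 in tamoxifen sham. They were 503 and 677 in vehicle overload and 989, 1212 and 1268 in tamoxifen overload. The overload groups lay apart from each other and above both sham arrays, which themselves differed widely. The log2 difference was 2.74 ± 0.210 (adjusted p = 0.000214, limma). Over the alternatives it was 1.58 to 3.90, lowest without the vehicle sham array and highest without the tamoxifen sham array.

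Cx3cr1, the fractalkine receptor of resident and patrolling monocytes, went from 32.7 and 52.3 to 266 and 332 with vehicle and 159, 383 and 476 with tamoxifen. Both sham arrays were below background, and the rise was at least 5.51-fold (adjusted p = 0.00473, limma). Ccr1, the receptor of Ccl3, Ccl5, Ccl6, Ccl7 and Ccl9, went from 71.4 and 56.3 to 157 and 156 with vehicle and 251, 395 and 237 with tamoxifen. Its log2 difference was 1.82 ± 0.312 (adjusted p = 0.00523, limma), and again vehicle overload lay between sham and tamoxifen overload without overlap.

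Markers of monocytes and macrophages moved with these ligands and receptors. Of 13 measured marker genes 12 rose (92.3%, against 14.7% of all genes) and none fell, with a median log2 difference of 1.96. Their summed signal was 5779.8 and 10226.6 in sham, 24874.2 to 28398.1 in vehicle overload and 30083.5 to 41779.0 in tamoxifen overload. It kept the order of the 4 groups that Ccl8 and Ccr2 show, with vehicle sham lowest. No marker of the list was below background on every array. Cd68 had a log2 difference of 2.77, Csf1r of 1.65 and Lyz2 of 2.08 (adjusted p = 0.000124, 0.000514 and 0.000224, limma). In a whole muscle, more cells of a type and more RNA per cell cannot be told apart, and the part of cell number in these results was not tested.

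**Figure D3:**
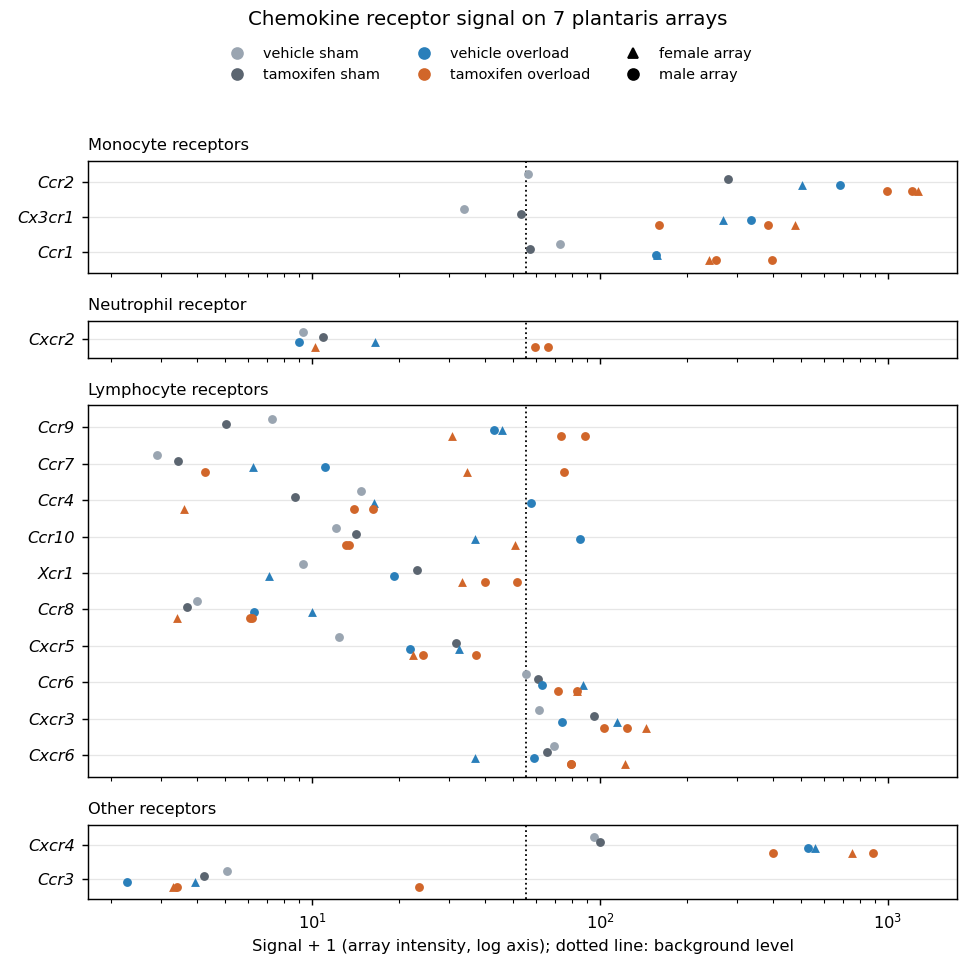
Signal plus 1 of each chemokine receptor on the 7 arrays (log axis), coloured by group and shaped by sex, with the background level as a dotted line. Ccr2, Cx3cr1, Ccr1 and Cxcr4 lie above both sham arrays on all 5 overload arrays, while most lymphocyte receptors stay near or below the background signal of 54.2.

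The neutrophil-attracting ligands share the receptor CXCR2 and lie together on chromosome 5, in the order Cxcl5, Cxcl3, Cxcl15, Cxcl1 and Cxcl2. The bases before the starts of Cxcl1, Cxcl2 and Cxcl3 are shown because these paralogs hold the same kB motif and differ in level between arrays; the motif is that of NF-kB, the factor through which inflammatory signals switch on such genes. Cxcl10, a ligand induced by interferon, is shown beside them. Each line holds the 250 bases before the annotated start, 5' to 3' on the gene's strand, from RefSeq (GRCm38.p6): Cxcl1 at chr5:90890995-90891244 (plus strand), Cxcl2 at chr5:90903649-90903898 (plus), Cxcl3 at chr5:90785851-90786100 (plus) and Cxcl10 at chr5:92348890-92349139 (minus). Capitals mark matches to kB (GGG, any 3 bases, TTCC) or, in Cxcl10, also to the interferon-stimulated response element, ISRE (GAAA, any 2 bases, GAAA), searched on both strands.
Cxcl1: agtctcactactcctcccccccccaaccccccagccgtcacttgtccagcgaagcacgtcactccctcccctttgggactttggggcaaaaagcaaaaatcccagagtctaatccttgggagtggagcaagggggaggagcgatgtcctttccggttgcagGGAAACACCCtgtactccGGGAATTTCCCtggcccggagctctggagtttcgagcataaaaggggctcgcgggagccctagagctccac
Cxcl2: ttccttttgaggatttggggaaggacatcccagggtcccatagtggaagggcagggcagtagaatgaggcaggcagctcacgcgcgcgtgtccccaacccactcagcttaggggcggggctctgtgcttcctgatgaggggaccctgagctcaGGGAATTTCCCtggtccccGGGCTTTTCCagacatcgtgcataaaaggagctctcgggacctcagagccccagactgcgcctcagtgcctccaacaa
Cxcl3: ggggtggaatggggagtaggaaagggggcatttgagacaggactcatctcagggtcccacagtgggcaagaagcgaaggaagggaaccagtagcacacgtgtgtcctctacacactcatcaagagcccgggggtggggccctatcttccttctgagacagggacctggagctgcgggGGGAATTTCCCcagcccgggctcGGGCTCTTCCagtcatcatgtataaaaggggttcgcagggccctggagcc
Cxcl10: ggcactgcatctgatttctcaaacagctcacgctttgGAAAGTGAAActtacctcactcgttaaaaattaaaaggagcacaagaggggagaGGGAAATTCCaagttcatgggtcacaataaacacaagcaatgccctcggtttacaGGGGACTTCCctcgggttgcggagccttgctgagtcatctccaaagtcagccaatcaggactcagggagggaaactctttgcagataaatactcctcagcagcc
In Cxcl1 the kB matches begin 89, 71 and 70 bases before the start, in Cxcl2 97, 96 and 78, and in Cxcl3 73, 72 and 50. The pair 1 base apart in each is the same palindrome-like stretch read on both strands and overlaps. Cxcl10 holds kB matches 159 and 104 bases and an ISRE match 213 bases before its start. Of the 49 members 36 had such a window, 40 windows in all. Among the neutrophil-attracting ligands, Cxcl5 had no window and the window of Cxcl15 held no match. A kB match was found in 9 of the 40 windows (22.5%), against 4.65% of 32851 windows of all genes. Counted by gene it was in 9 of 36 members (25%), against 5.31% of 27025 genes. It was in 3 of the 14 members that had a window and that overload raised, beside the 9 of 36 among all members with a window. Ccl1, Ccl20 and Ccr3, which also held a match, were below background on every array. ISRE was found in 2 of 40 windows (5%, against 2.98%). A match is a description of letters and not a bound site.

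Of the 5 neutrophil-attracting ligands 2 rose and none fell (40% and 0%, against 14.7% and 8.16% of all genes). Their median log2 difference was 1.65 (0 with dim sides at the background level). By the probe sets used, Cxcl1 (KC) was the only one above background on all arrays. Its signals were 219 and 252 in sham, 327 and 450.3 in vehicle overload and 438, 481 and 410 in tamoxifen overload. No overload array fell to the sham level and the overload groups overlapped each other, with a log2 difference of 0.93 ± 0.195 (adjusted p = 0.0122, limma). The call was lost without vehicle sham replicate 1, without vehicle overload replicate 2 and with the mean of its 3 probe sets. The other probe sets did not pass (adjusted p = 0.225 and 0.461 over all probe sets, limma). Both were highest on tamoxifen overload replicates 2 and 3, at 486 and 414 and at 288 and 361. The dimmer was otherwise above background on vehicle overload replicate 2 alone, at 88.6.

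Cxcl5 (LIX) was above background on 2 arrays alone. Its signals were 3.16 and 6.14 in sham, 0.69 and 5.09 in vehicle overload and 136, 894 and 37.0 in tamoxifen overload. Tamoxifen overload replicates 1 and 2 were high, replicate 3 was below background, and vehicle overload overlapped sham. It passed for overload (adjusted p = 0.0383, limma), but no fold is given because the mean log2 overload level lay below the background level, and the call was lost in 9 of 16 alternatives. Cxcl2 (MIP-2) had signals of 14.7 and 12.1 in sham, 26.8 and 21.0 in vehicle overload and 42.2, 199.97 and 125 in tamoxifen overload. Only tamoxifen overload replicates 2 and 3 were above background, and it did not pass (adjusted p = 0.138, limma).

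Cxcl3 had signals of 14.7 and 1.38 in sham, 15.1 and 13.4 in vehicle overload and 12.7, 139 and 27.3 in tamoxifen overload. Tamoxifen overload replicate 2 alone was above background (adjusted p = 0.187 for overload, limma). Cxcl15 (lungkine) was above background on 1 array, vehicle overload replicate 1, with 6.72 to 59.5 over all arrays. Cxcr2, the receptor of these ligands, had signals of 8.31 and 9.94 in sham, 15.5 and 7.99 in vehicle overload and 64.7, 58.2 and 9.22 in tamoxifen overload. The arrays above background were tamoxifen overload replicates 1 and 2, the same that were high for Cxcl5 (adjusted p = 0.277 for overload, limma).

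The summed signal of the 8 measured neutrophil markers was 634.4 and 1255.1 in sham, 570.4 and 757.4 in vehicle overload and 1254.6 to 2840.7 in tamoxifen overload. Of the 8, S100a8 alone passed for overload (12.5%, near the 14.7% of all genes that rose), with a log2 difference of 0.90 (adjusted p = 0.0209, limma). Mmp8 was below background on every array. S100a8 read 870 in replicate 1, 1331 in replicate 2 and 660.1 in replicate 3 of tamoxifen overload. The part of neutrophils in the values of Cxcl5, Cxcl2 and Cxcr2 was not tested.

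Of the 13 lymphocyte-attracting ligands 3 rose and 1 fell (23.1% and 7.69%, against 14.7% and 8.16% of all genes). Their median log2 difference was -0.10 (0 with dim sides at the background level). Cxcl9, Cxcl10 and Cxcl11 are the interferon-induced ligands of CXCR3 and lie side by side on chromosome 5, yet they moved apart. Cxcl10 had signals of 63.8 in vehicle sham and 8.97 in tamoxifen sham, 129.9 and 147 in vehicle overload and 131, 326 and 302 in tamoxifen overload. All overload arrays were above both sham arrays, and the log2 difference of 2.73 ± 0.455 (adjusted p = 0.00464, limma) rests partly on a sham value below background. Without tamoxifen sham replicate 1 it was 1.38 and did not pass (adjusted p = 0.122, limma).

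Cxcl9 had signals of 89.9 and 44.0 in sham, 185 and 144 in vehicle overload and 130.4, 298 and 538 in tamoxifen overload. Overload and sham arrays did not overlap while the overload groups did, but the log2 difference of 1.33 ± 0.426 missed the threshold (adjusted p = 0.0589, limma), and it passed in 6 alternatives. Cxcl11 had signals of 231 and 309 in sham, 136 and 52.6 in vehicle overload and 111, 155 and 132 in tamoxifen overload. It was lower on every overload array, by -1.58 ± 0.379 (log2; adjusted p = 0.0209, limma), and the call was lost without either sham array or without vehicle overload replicate 2.

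Ccl17 (TARC), a CCR4 ligand, had signals of 6.80 and 13.6 in sham, 73.7 and 30.04 in vehicle overload and 47.3, 62.3 and 63.4 in tamoxifen overload. It passed (adjusted p = 0.0309, limma), but only 3 of 5 overload arrays exceeded background and the mean log2 level of the 5 did not, so no fold is given. The call was lost in 5 of 16 alternatives, namely male arrays alone, no intensity trend, and leaving out vehicle sham replicate 1, vehicle overload replicate 2 or tamoxifen overload replicate 2 (highest adjusted p apart from the trend = 0.162, limma). Cxcl16, the CXCR6 ligand that also scavenges oxidised lipid, had signals of 145 and 249 in sham, 308 and 335 in vehicle overload and 319, 531 and 544 in tamoxifen overload. Its log2 difference was 0.93 ± 0.273 (adjusted p = 0.0442, limma), and the call was lost in 7 alternatives. Ccl28 and Cxcl13 were lower on every overload array but did not pass (adjusted p = 0.103 and 0.187, limma). Ccl28 was 169 and 213 in sham and 99.99 to 126 in overload, and Cxcl13, the B cell ligand, was 138 and 194 in sham and 94.7 to 129 in overload. Ccl25 ran from 101 to 209.6, Ccl27a from 61.3 to 456, and Xcl1 was above background on 1 array (adjusted p = 0.992, 0.683 and 0.529, limma).

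Of the 10 lymphocyte receptors 1 rose, Ccr9 (10%, against 14.7% of all genes). The median log2 difference over the 10 was 0.87 (0 with dim sides at the background level). Ccr9, the gut-homing receptor, had signals of 6.29 and 4.01 in sham, 44.5 and 41.7 in vehicle overload and 72.5, 87.9 and 29.7 in tamoxifen overload. All overload arrays were above both sham arrays (adjusted p = 0.00594, limma), but only tamoxifen overload replicates 1 and 2 were above background, and 3 of its 4 other probe sets had a difference of the other sign. Cxcr3, the receptor of Cxcl9, Cxcl10 and Cxcl11, had signals of 60.4 and 94.0 in sham, 113 and 73.0 in vehicle overload and 102, 123 and 144 in tamoxifen overload. Vehicle overload replicate 2 lay between the sham arrays, and the log2 difference of 0.28 ± 0.335 did not pass (adjusted p = 0.620, limma). It turned negative under quantile normalization, under median centring and without vehicle sham replicate 1.

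Ccr7, which guides cells to lymph nodes, was above background on tamoxifen overload replicate 2 alone, at 74.1. Its other overload signals were 5.24 and 10.1 with vehicle and 3.26 and 33.6 with tamoxifen, and it read 1.90 and 2.42 in sham (adjusted p = 0.299, limma). Ccr4 and Ccr10 were each above background on vehicle overload replicate 2 alone, at 56.4 and 84.2 (adjusted p = 0.185 and 0.361, limma). Ccr6 and Cxcr3 were the lymphocyte receptors above background on all 7 arrays, and Cxcr6 was above it on 6 (adjusted p = 0.657 for Ccr6 and 0.937 for Cxcr6, limma). Lymphocyte markers were dim as well. None of 9 measured T, NK and B cell markers passed, Cd3e and Cd79a were below background on every array, and the summed signal was 188.2 and 330.4 in sham, 234.4 and 260.9 in vehicle overload and 278.3 to 422.1 in tamoxifen overload.

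Cxcl12 (SDF-1) and its receptor CXCR4 hold stem cells and leukocytes in place and act in development of muscle and vessels. Cxcl12 had signals of 1772 and 1856 in sham, 2978 and 2964 in vehicle overload and 5738, 7055 and 4575 in tamoxifen overload. The 3 levels did not overlap, and the log2 difference was 1.29 ± 0.167 (adjusted p = 0.00158, limma). Its other probe sets went the other way, as described further on. Cxcr4 had signals of 93.9 and 99.2 in sham, 558 and 525 in vehicle overload and 397, 889 and 746 in tamoxifen overload. Both overload groups were above sham and overlapped each other, with a log2 difference of 2.50 ± 0.330 (adjusted p = 0.00172, limma). Of the other ligands besides Ccl11, Cxcl14 ran from 696 to 1054 (log2 difference -0.07, adjusted p = 0.797, limma), and Cxcl17 was above background on 3 arrays.

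The 49 members had 77 probe sets, 46 of them on the 18 members with several, and the gene value is that of the one with the highest mean level. For 5 of the 18 another probe set had the other sign in overload, and for 9 the call differed. The Cxcl12 probe set used rose by 1.29, whereas the others gave -0.62 and -0.74 (adjusted p = 0.104 and 0.226 over all probe sets, limma), the first of them at signals of 867 to 2079. Their mean gave -0.02. For Cxcl16 the probe set used gave 0.93 and the other 3.72 (adjusted p = 0.000427, limma), the latter with a lowest signal of 8.95. The Cxcl14 probe sets gave -0.07 and 0.84 (adjusted p = 0.0151 for the second, limma), and the Cxcl13 probe sets -0.66 and -1.77 (adjusted p = 0.0108 for the second, limma). For Ccr2, 3 of 4 probe sets passed, at 2.74, 3.13 and 1.33, and the other, above background on 2 arrays, gave 0.02. The second Ccr1 probe set, above background on 1 array, gave 1.105 and did not pass (adjusted p = 0.226 over all probe sets, limma). Which transcript each probe set reads was not tested.

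**Figure D4:**
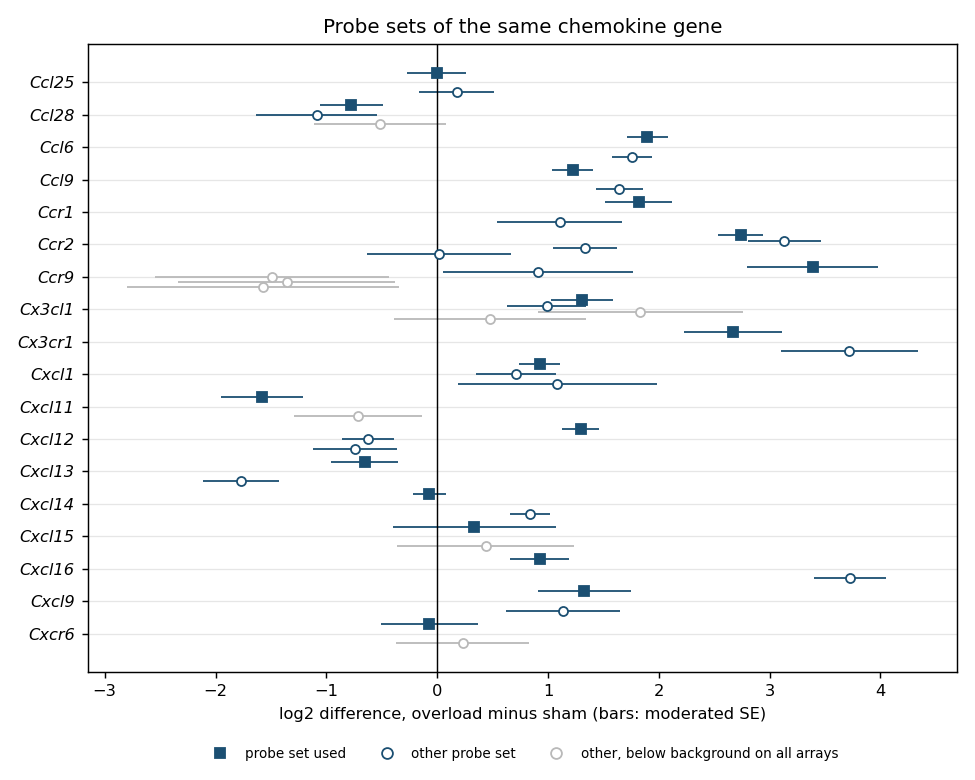
Fitted log2 difference, overload minus sham, of every probe set of the 18 chemokine genes with more than 1 probe set, with the probe set used marked. The Cxcl12 and Ccr9 probe sets lie on both sides of 0, and those of Ccl6, Ccl9 and Cx3cr1 lie together on the positive side.

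Lists of genes around the family were counted in the same fit, in which 14.7% of all genes rose. Of 11 ligands and receptors outside the symbol rule 2 rose (18.2%, near that share), Ackr1, a decoy receptor of venules that binds many chemokines, by 1.15 and Cklf by 1.03 (adjusted p = 0.0166 and 0.0249, limma). Of 27 measured genes of signalling downstream of the receptors 12 rose (44.4%) and none fell. Among them Dock2, an activator of Rac in leukocytes, rose by 2.11, Prkcb by 1.58 and Arrb2, the arrestin that internalises receptors, by 1.51 (adjusted p = 0.00133, 0.00511 and 0.00318, limma). Rgs1, which shortens G protein signals, was below background in sham and at least 1.38-fold higher (adjusted p = 0.0145, limma). Of 24 measured inducers and transcription factors 8 rose (33.3%) and none fell, with Il1b at 1.87, Tlr2 at 1.80, Irf7 at 1.79 and Myd88 at 1.26 (adjusted p = 0.0431, 0.00390, 0.00793 and 0.00190, limma). Of 14 measured genes of heparan sulfate and of proteases that trim chemokines 7 rose (50%) and none fell. Mmp12, a macrophage elastase that was below background in sham, was at least 2.39-fold higher, Mmp14 rose by 3.46, Mmp2 by 2.09 and the core protein Sdc2 by 1.91 (adjusted p = 0.00240, 4.26e-05, 0.000133 and 0.000146, limma).

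Within each treatment the overload effect was read against a single sham array, so each value assumes that the sham arrays vary like the others. With vehicle (2 against 1 array) 10 members rose and none fell, where 6.35% of all genes rose and 2.44% fell. At an unadjusted p under 0.05, 17 members were higher and 1 lower (34.7% and 2.04%, against 15.6% and 8.46% of all genes). The 10 called were Ccl8, Ccl12, Ccl5, Ccl7, Ccl6, Ccl9, Cx3cl1, Ccr2, Cx3cr1 and Cxcr4. Of 15 alternatives, the calls of Ccl7 and Cx3cl1 were each lost in 11, that of Cx3cr1 in 5 and that of Cxcr4 in 3, and leaving out vehicle overload replicate 2 ended these 4 and those of Ccl5 and Ccl9. With tamoxifen (3 against 1) 16 rose and none fell, where 9.98% rose and 4.9% fell. Unadjusted, 21 were higher and 2 lower (42.9% and 4.08%, against 18.4% and 11.4% of all genes). Cx3cl1 was not among them, and Ccr1, Ccr9, Cxcl1, Cxcl5, Cxcl9, Cxcl10 and Cxcl12 were called with tamoxifen and not with vehicle. Of these, the call of Cxcl1 was lost in 11 of 15 alternatives, that of Cxcl9 in 4 of 15 and that of Cxcl5 in 4 of 14, and those of Ccr1, Ccr9 and Cxcl12 with the mean of probe sets. Averaging the probe sets also ended the call of Ccr2 with tamoxifen. Leaving out tamoxifen overload replicate 2 ended the calls of Ccl5, Ccl9, Ccr9, Cx3cr1, Cxcl1, Cxcl5 and Cxcl9. A call in one treatment and not in the other does not show that they differ.

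The interaction, the overload effect with tamoxifen minus that with vehicle, tested this difference, and none of the 49 members passed in either direction (limma), as none of 18193 genes did (0%). At an unadjusted p under 0.05 it was higher for Cxcl10, Cxcl12, Cxcl5 and Cxcl9 and lower for Ccl6 and Ccr2, or 8.16% and 4.08% of the members against 2.69% and 2.92% of all genes. For Cxcl10 it was 3.50 ± 0.830 (adjusted p = 0.717, limma) and for Ccr2 -1.35 ± 0.384 (adjusted p = 0.745, limma). Both include the difference between the sham arrays, which had no replicate.

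The second comparison was of tamoxifen against vehicle in overloaded muscle (3 against 2 arrays). All mice were Pax7-DTA, so an effect of the drug itself and one of the toxin in Pax7 cells cannot be told apart. None of the 49 members passed in either direction, and of all genes 0% did (limma). At an unadjusted p under 0.05, 9 members were higher and 1 was lower, or 18.4% and 2.04%. Of all 18193 genes 1336 and 596 were, or 7.34% and 3.28%. The members higher were Ccl7, Ccl8, Ccl12, Ccr1, Ccr2, Cxcl2, Cxcl5, Cxcl12 and Xcr1, and Ccr4 was lower. The median log2 difference of the members was 0.49, against 0.03 over all genes, and 36 were positive. Every tamoxifen overload array was above both vehicle overload arrays for 10 members, or 20.4% against 16.9% of all genes, and below for 4, or 8.16% against 12.6%. The shares without overlap are thus near the background.

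Ccl8 was 4514, 5729 and 4127 with tamoxifen and 2030.0 and 2318 with vehicle, a log2 difference of 1.09 ± 0.155 (adjusted p = 0.378, limma). Cxcl12 differed by 0.90 ± 0.167 (adjusted p = 0.378, limma) and Ccr2 by 0.97 ± 0.210 (adjusted p = 0.378, limma). The other Cxcl12 probe sets gave 0.476 and 0.336 (adjusted p = 0.542 and 0.787 over all probe sets, limma). Cxcl5 was at least 3.02-fold higher (adjusted p = 0.378, limma), since both vehicle arrays were below background, and Cxcl2 at least 1.87-fold higher (adjusted p = 0.412, limma). Ccr1 differed by 0.83 ± 0.312 (adjusted p = 0.432, limma). Without tamoxifen overload replicate 1, Ccl8, Ccr2, Cxcl12, Cxcl2 and Cxcl5 passed, with 1.01% of all genes called higher, though none passed with all arrays. The median signal was 114.5, 127.7 and 116.2 on the tamoxifen overload arrays and 105.8 and 108.6 on the vehicle overload arrays. The summed signals of monocyte and macrophage markers and of neutrophil markers, given above, were higher on every tamoxifen overload array than on either vehicle overload array, and their part in these values was not tested.

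**Figure D5:**
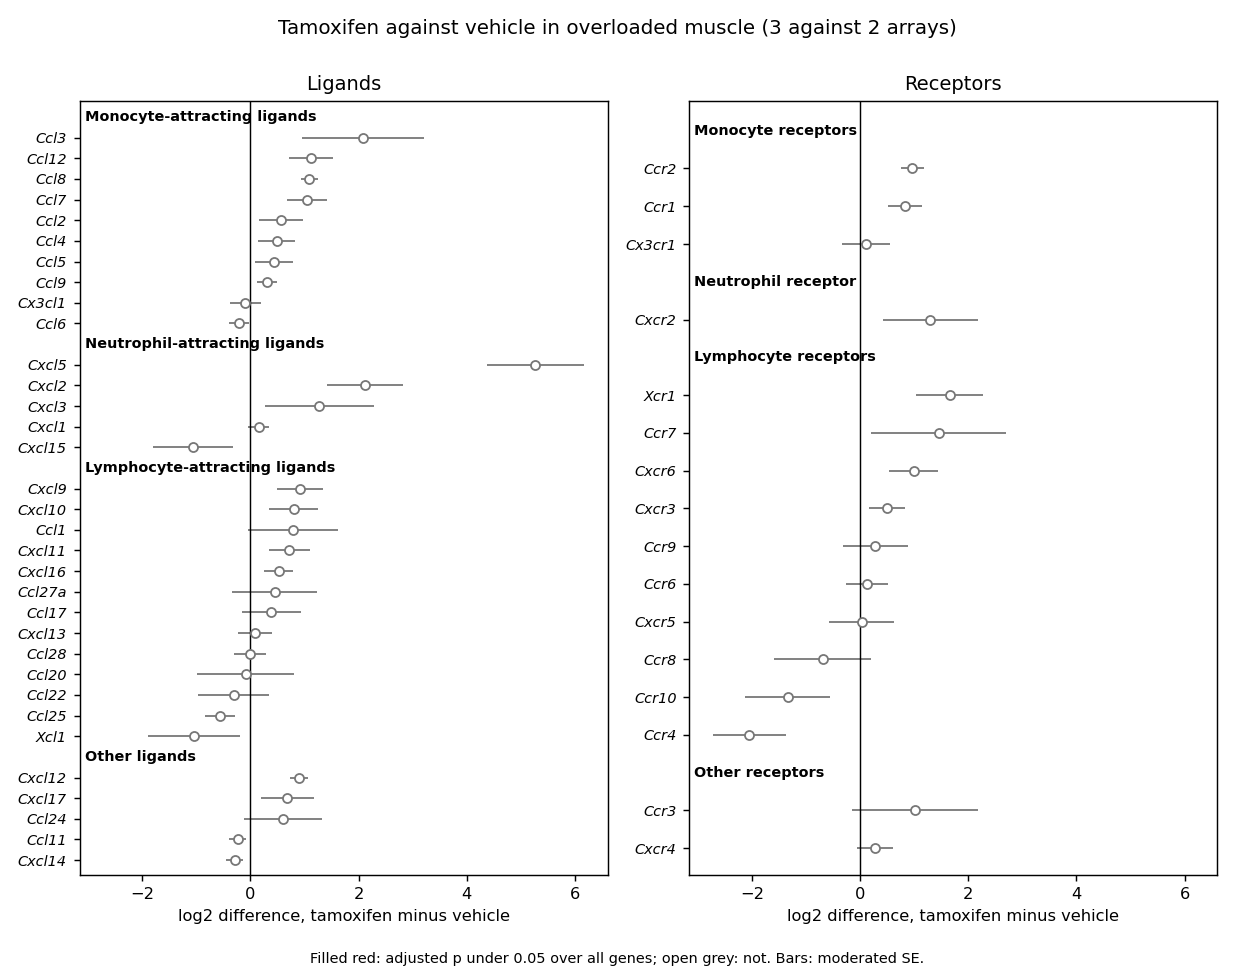
Fitted log2 difference of each chemokine gene, tamoxifen minus vehicle in overloaded muscle (3 against 2 arrays), with the moderated standard error as bars. No gene passed an adjusted p under 0.05; Ccl8 at 1.09, Ccr2 at 0.97 and Cxcl12 at 0.90 have narrow errors, and Cxcl5 at 5.26 rests on vehicle signals below background.

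Between the sham arrays there was 1 array a side and so no test. Of the 25 members above background on at least 1 of them, Ccl8, Ccr2 and Cxcl17 were more than 2-fold higher with tamoxifen and Cxcl9 and Cxcl10 more than 2-fold lower. That is 6.12% and 4.08% of the 49 members, where 3.89% and 1.7% of all genes passed the same rule. Ccr2 differed by 2.31 (log2) and Ccl8 by 1.27, and the summed macrophage markers stood at 5779.8 and 10226.6. Female and male overload arrays differed in no member (limma; 0.0495% of all genes were called), and at an unadjusted p under 0.05 Ccr4 and Cxcl5 were lower in females (4.08% of the members, against 2.68% of all genes).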

How the data were processed

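Per the labels, 1 µg of total RNA per sample was labelled with biotin and measured on Affymetrix Mouse 430 2.0 arrays (7 arrays of plantaris). The labelling protocol names a whole-transcript kit, and how this goes with this type of array is not settled from the sources. The deposited values are probe set intensities on a linear scale, and their mean without the lowest and highest 2% is 500 on each array, so scaling by the authors was a single factor per array. The submitters' processing notes name Partek, without a version. The summarisation method and the genome build are not given in the sources used here.

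Of 45101 probe sets, a single symbol was given for 34945, several for 932 and none for 9160, and 64 were controls. Entrez identifiers matched 34741, left 204 unmatched and changed 0 symbols. Each gene took its probe set with the highest mean log2(value + 1). Groups came from the titles. A term per group and one for sex were fitted with limma 3.58.1 (R 4.3.3) with an intensity trend, 2 residual and 5.95 prior degrees of freedom; tests were two-sided and adjusted over 18193 genes. The sham arrays were assumed to vary like the others. Where the sham side was at or below background on every array, a fold is a bound: the mean log2 overload level against the background level. The procedure was also run on simulated data. These gave sham and overload arrays the same spread, so they could not check whether real sham arrays vary like the others. Figures used Python 3.11.15 and matplotlib 3.10.9.

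The members, roles and gene lists were chosen with earlier results of these data known. Values on every array are given for members called in any comparison, then for those with the largest differences, up to 30, and for a list of well known members; others are given by range. Ccl4, Ccl11, Ccl27a, Ccl28, Cxcl13, Cxcl14 and Cxcr6 were described after their values were seen. The 4 chemokine probe sets that name several genes or fall outside the rule were not members. The fit was repeated with median centring or quantile normalization, a pseudocount of 16, all probe sets or their mean per gene, dim genes left out, no intensity trend, no sex term, no interaction (additive), males only, overloaded muscle only, and each array dropped in turn.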

Additional observations from a re-analysis of the deposited data

Results flagged for a closer look

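In mean level Cxcr6, the receptor of Cxcl16, lay below sham with vehicle overload and above sham with tamoxifen overload. Its signal was 68.3 in vehicle sham against 35.8 and 58.0 in vehicle overload, and 64.2 in tamoxifen sham against 78.1, 78.3 and 121.6 in tamoxifen overload. The fitted differences, each against 1 sham array, were -0.61 ± 0.630 with vehicle and 0.47 ± 0.575 with tamoxifen, each smaller than its error. The mean log2 change with tamoxifen minus that with vehicle was 1.065. This pattern of array values was not tested as such; the interaction term of the fit, 1.08 ± 0.813, did not pass (adjusted p = 0.984, limma). The other Cxcr6 probe set was below background on every array. It was not lower with vehicle overload (18.1 and 20.5) than in vehicle sham (15.7). No group had 4 or more arrays, so single arrays were not screened for outliers.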

How the results depend on the processing

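Of the 20 members called for overload, 18 kept their sign in every alternative run for them (17, or 16 for Ccl17 and Cxcl5), the exceptions being Ccr9 and Cxcl12, both at -0.024 with the mean of probe sets. The call was lost for 9 only without the intensity trend, and for 11 in another alternative too. Without the trend no member was called: 0 higher and 0 lower for overload, and 0 higher within vehicle and within tamoxifen. Leaving out 1 array gave 12 to 23 members higher and 0 to 1 lower for overload (12 without vehicle sham, and 0 lower without either sham array), 4 to 13 higher and 0 to 1 lower with vehicle (4 without vehicle overload replicate 2), 9 to 21 higher with tamoxifen (9 without tamoxifen overload replicate 2) and 0 to 5 higher for tamoxifen in overload (5 without replicate 1). Quantile normalization gave 2 lower for overload and 6 higher with vehicle. Median centring, which moved the median of all genes by -0.29, gave 18 members higher and 3 lower for overload (9.56% and 14.9% of all genes), 1 lower with vehicle and 1 lower with tamoxifen. Male arrays alone gave 1 lower with vehicle. Leaving out either female array leaves the other to the sex term, so those fits nearly equal the male arrays alone. Some log2 differences that did not pass turned sign. For overload, leaving out 1 array gave -1.238 to 1.691 for Ccl3 and -0.213 to 1.364 for Ccr10 (both lowest without vehicle overload replicate 2), -0.182 to 0.833 for Cxcl15 (lowest without tamoxifen overload replicate 2) and -0.038 to 0.592 for Cxcr3 (lowest without vehicle sham); Cxcr3 was -0.016 with quantile normalization and -0.013 with median centring. For tamoxifen in overload, leaving out 1 array gave -0.214 to 0.833 for Ccl17, -2.682 to 0.456 for Ccr10, -0.568 to 0.920 for Ccr9, -0.050 to 1.298 for Cxcl11 and -0.689 to 2.795 for Cxcr2, each turned by vehicle overload replicate 2. It gave -0.344 to 5.325 for Ccl3 and -0.426 to 0.839 for Cx3cr1, both lowest without vehicle overload replicate 1, and -0.249 to 0.061 for Cx3cl1. Male arrays alone gave -0.344 for Ccl3 and -0.426 for Cx3cr1, median centring -0.029 for Cx3cr1, and the additive model 0.051 for Ccl6, 0.087 for Cx3cl1 and -0.252 for Cxcl10. The cause was not tested. No paired analysis was possible because the vehicle overload titles carry no replicate number and each sham group has 1 array.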

Other observations

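Ccl27a, a skin-type ligand of CCR10, varied more between arrays of a group than between groups. Its signal was 456 in vehicle sham, 233 in tamoxifen sham, 61.3 and 419 in vehicle overload, and 113, 272 and 407 in tamoxifen overload. The 2 probe sets that the annotation assigns to both Ccl27a and Ccl27b, which are near-identical copies, were lowest on the same arrays: vehicle overload replicate 1 (96.9 and 43.2) and tamoxifen overload replicate 1 (65.2 and 51.3). Overload did not pass for Ccl27a (log2 difference -0.55, adjusted p = 0.683, limma).

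The probe set shared by Ccl21a, Ccl21b, Ccl21c and Ccl21d, ligands of CCR7 on lymphatic vessels, had signals of 633 and 359 in sham, 494 and 373 in vehicle overload and 453, 273 and 612 in tamoxifen overload, so the groups overlapped. The Ccl19 probe set had signals of 70.5 and 116 in sham and 34.0 to 120.1 in overload.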
